A study of Mus musculus with 3 samples.

Results

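The regions described here are sites that ChIP libraries with an antibody against the HA tag listed both with and without expressed HA-tagged ZFP57. The KAP1 library lists nothing near them. They are regions of the ZFP57 list that were selected on 2 measured positions: a control region had to start less than 150 bp away, and no KAP1 region could start within 10 kb. The rule found 942 of the 22031 ZFP57 regions, and the 3 lists hold 88857 regions in all. They are called HA-shared regions without KAP1 below.

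The data are chromatin immunoprecipitation followed by sequencing (ChIP-seq) in mouse embryonic stem (ES) cells, with 1 library in each of 3 groups. The control was an HA ChIP in ES cells with no expressed transgene and listed 45956 regions. The ZFP57 library was an HA ChIP in ES cells expressing HA-tagged ZFP57, and the KAP1 library was a ChIP with an antibody to KAP1 (RBCC) in E14 ES cells with no expressed transgene, which listed 20870. All groups were grown in normal ES cell medium. The sources used here do not give the line behind both HA libraries, the promoter of the transgene or the number of clones. Both HA libraries therefore share the antibody, and the control and KAP1 libraries share the absence of the transgene. Each deposited list gives a chromosome, a start and an end, so there is no height, depth or score for any region. No value below has a replicate, and intervals on shares (exact binomial) and on counts (exact Poisson) cover counting error at 95% only.

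ZFP57 is a KRAB zinc finger protein that binds a methylated DNA motif and is known for maintaining methylation at imprinting control regions. Its KRAB domain recruits KAP1 (TRIM28), a scaffold that brings in the histone methyltransferase SETDB1 and heterochromatin protein, and in ES cells KAP1 also silences endogenous retroviruses through many other KRAB zinc finger proteins. A ChIP with a tag antibody in cells that have no tagged protein shows what such an antibody and the method list by themselves. Sites that both HA libraries list and KAP1 does not are thus listed in cells without the tag and have no listed KAP1 region nearby. Absence from the KAP1 list does not show that KAP1 was absent.

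The 942 regions were a small part of each list. Of all ZFP57 regions, 49.0% lay on a control region and 31.5% had no KAP1 region within 10 kb. The 2 criteria chose the members, so nothing is read from these shares. The regions that met both made up 4.28% of the ZFP57 list and 8.72% of the 10800 ZFP57 regions on a control region. Among the 6929 ZFP57 regions without KAP1 within 10 kb they were 13.6% (95% interval 12.8 to 14.4%), and the other 5987 lay off the control. Seen from the control list, 940 regions had a ZFP57 region less than 150 bp away and no KAP1 within 10 kb, which was 2.05% of that list and 3.37% of its 27917 regions without KAP1. The corresponding KAP1 set, KAP1 regions on a control region without ZFP57 within 10 kb, held 364 regions, or 7.70% of 4726. The number of regions in a set moves with the lengths of the lists, which the files do not tie to depth.

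Coincidence with the control fell off steeply with distance. The 942 regions had a control start 0 to 149 bp away, and the number of ZFP57 regions without KAP1 fell to 128 with the nearest control start 150 to 299 bp away. It was 77 at 300 to 449 bp and between 44 and 65 in each of the 7 following bins of the same width, up to 1499 bp. A further 3825 had no control start within 10 kb. The members nearest the limit were on chromosome 1 at 175659390 and chromosome 7 at 52507624, each 149 bp from the control start, and the first regions outside it, on chromosome 14 at 59968102 and chromosome 18 at 13577187, were 150 bp away (all positions are of build mm9, and a single position is the first base of a region).

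**Figure D1:**
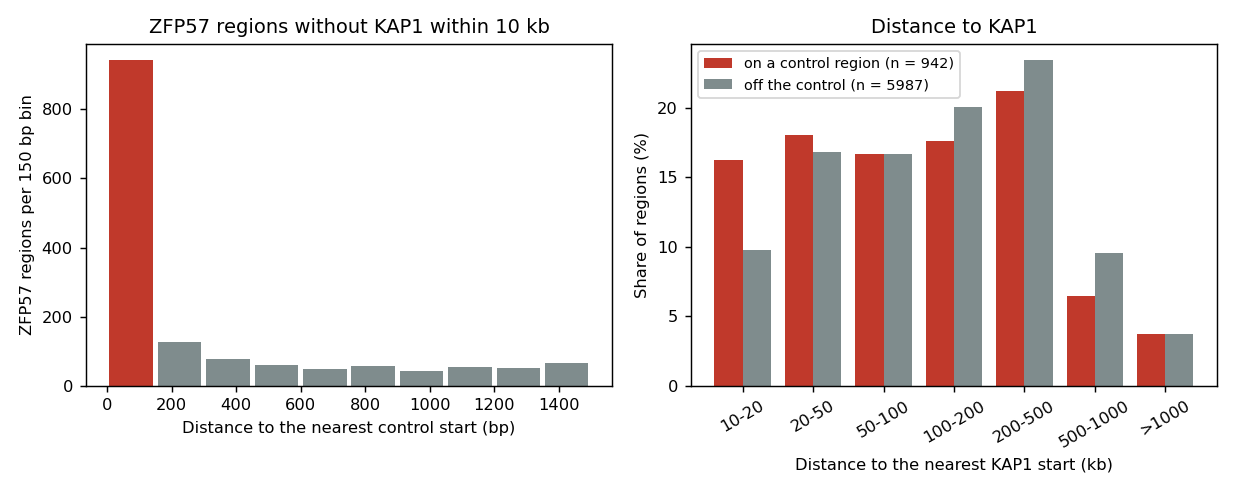
Left, the number of ZFP57 regions without KAP1 within 10 kb (y axis) by distance to the nearest control start in bins of 150 bp (x axis, bp); the first bar holds the 942 HA-shared regions and the second 128. Right, the share of regions (y axis, %) by distance to the nearest KAP1 start (x axis, kb) for the 942 regions on a control region and the 5987 off it; 16.2% of the former and 9.79% of the latter lie 10 to 20 kb from KAP1.

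Within the 150 bp limit, both HA libraries placed the same site close together but not evenly around each other. The median absolute distance between the ZFP57 start and the nearest control start was 39 bp (interval of the median 36 to 43), with quartiles of 18.3 and 71 bp. In 558 of the 942 regions (59.2%, 56.0 to 62.4%) the starts were less than 50 bp apart, and in 107 (11.4%) they were 100 bp or more apart. Both libraries gave the same start in 7 regions, among them chromosome 4 from 135711569 to 135711718 and chromosome 17 from 34844504 to 34844653.

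The ZFP57 region usually had the higher coordinate. Its start lay above the control start in 619 regions (65.7%, 62.6 to 68.7%) and below it in 316, and the median signed offset was 19 bp (15 to 21). The median offset was above 0 on 18 of the 19 autosomes, from 11 bp on chromosome 3 to 47.5 bp on chromosome 19. On chromosome 4, the exception, it was -1 bp with 46 regions. On the X chromosome the median over 19 regions was 19 bp.

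The same displacement from control starts was measured in regions with KAP1 and in the KAP1 list. The 9858 other ZFP57 regions on a control region, which have KAP1 within 10 kb, had a median offset of 18 bp (18 to 19). The 364 KAP1 regions on a control region without ZFP57 also started above it, by a median of 20.5 bp (14 to 27). By contrast, the 269 ZFP57 regions on a KAP1 region with no control region within 10 kb had a median offset of 0 bp (-7 to 4) from the KAP1 start, with 131 above and 134 below. Regions of the control list thus started about as far below their partners in either other list, while the other 2 lists were centred on each other. The sources used here give no read length, fragment length or peak caller setting, and the part of these in the offset was not tested. Moving every control start up by 18 bp changed the median absolute distance of the 942 regions from 39 to 34 bp.

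**Figure D2:**
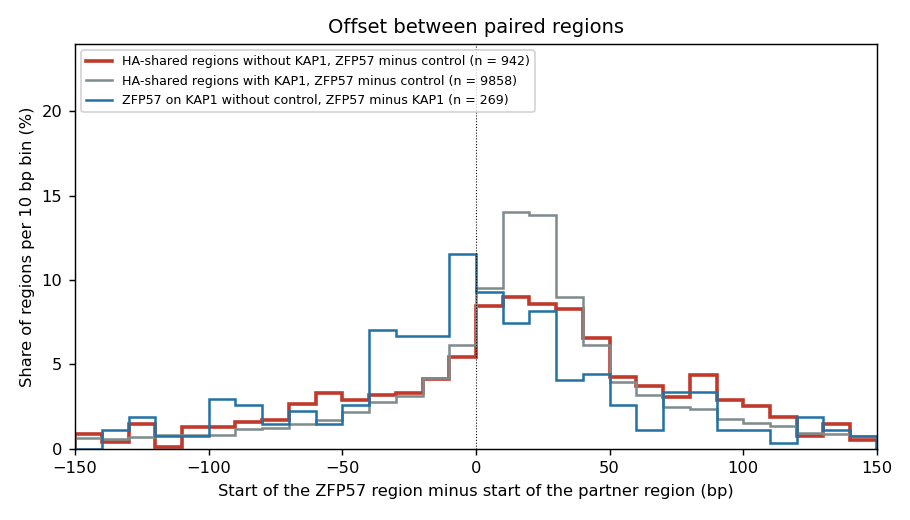
Share of regions per 10 bp bin (y axis, %) by the start of the ZFP57 region minus the start of its partner (x axis, bp), for the 942 HA-shared regions without KAP1, the 9858 HA-shared regions with KAP1 and the 269 ZFP57 regions on KAP1 without control. Both control comparisons peak right of 0, with medians of 19 and 18 bp, and the KAP1 comparison has a median of 0.

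The starts of the HA-shared regions without KAP1 were less tightly paired than those that lay on a KAP1 region. Less than 50 bp separated them in 59.2%, against 73.1% (72.1 to 74.1%) of the 7681 HA-shared regions with a KAP1 start less than 150 bp away. The 2177 HA-shared regions with KAP1 farther off, at 150 bp to 10 kb, had 63.0% (60.9 to 65.0%), an interval that overlaps that of the regions without KAP1. They also had 14.2% at 100 bp or more, where the regions without KAP1 had 11.4%. The 364 KAP1 regions on a control region without ZFP57 had 55.5% (50.2 to 60.7%) under 50 bp. The wider pairing was thus not particular to the HA-shared regions without KAP1.

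How closely starts were paired also differed with the number of regions around them: HA-shared regions without KAP1 that were the single ZFP57 region within 10 kb, with a single control region there, had a median absolute distance of 34 bp, and those with more regions there had 44 bp. The comparison was therefore repeated where the ZFP57 region and the control region were each the single one of their list within 10 kb. This left 411 regions without KAP1 and 434 with it, of which 394 had it less than 150 bp away. The median absolute distance was then 34 bp (30 to 39) without KAP1 and 24 bp (22 to 26) with it, and 64.7% (59.9 to 69.3%) against 81.8% (77.8 to 85.3%) were less than 50 bp apart. Of these pairs, 8.27% without and 2.76% with KAP1 were 100 bp or more apart. The intervals do not overlap, but they treat regions of 1 library as independent, and the difference was not tested over samples.

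Most of the HA-shared regions without KAP1 were the only ZFP57 region within 10 kb, but fewer also had a single control region there. Of the 942, 627 had no other ZFP57 region within 10 kb, and 479 had a single control region there, their partner. Both held for 411 regions (43.6%). Another 233 had 2 control regions within 10 kb and 230 had 3 or more, with at most 10. The 9858 others had a median of 17 control regions and 17 ZFP57 regions within 10 kb, against 1 and 1. Another ZFP57 region lay within 1 kb of 12.1% (10.1 to 14.4%) of the regions without KAP1 and of 75.8% of the others. KAP1-free ground by itself is sparser: among the 5987 ZFP57 regions off the control and without KAP1, 4.21% (3.71 to 4.75%) had another ZFP57 region within 1 kb and 16.4% within 10 kb, where the HA-shared regions had 33.4%. The HA-shared regions were therefore sparser than regions with KAP1 and more clustered than the rest of the KAP1-free ZFP57 list. The rule bears on both differences. It leaves out ground near KAP1, and neighbouring ZFP57 regions that share a control region can both meet it. How much of either difference comes from the rule was not tested.

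Windows dense in control regions held a smaller part of the HA-shared regions without KAP1 than of those with KAP1. In 122 windows of 1 Mb, 4.85% of the 2514 with any region, the control list had 50 regions or more. These held 1.17 HA-shared regions without KAP1 per window against 0.334 in the others. Every HA-shared region lies on a control region, so a higher count in windows chosen for control regions is built in. The 122 windows held 143 of the 942 regions (15.2%, 12.9 to 17.6%), 9.45% of the KAP1-free ZFP57 regions off the control and 78.2% of the HA-shared regions with KAP1. The rule leaves out regions near KAP1, so where these windows hold many KAP1 regions the contrast with 78.2% is in part built in. Of these windows 60 held at least 1 HA-shared region without KAP1.

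Many of the regions lay far from KAP1, well past the limit that chose them. The median distance to the nearest KAP1 start was 94.3 kb, with quartiles of 30.1 and 252 kb. Of the 942, 789 (83.8%) had no KAP1 region within 20 kb, 619 (65.7%) none within 50 kb, 462 (49.0%) none within 100 kb and 35 none within 1000 kb. The regions off the control had a longer median distance, 129 kb. Of these, 90.2% had no KAP1 region within 20 kb, 73.4% none within 50 kb and 56.7% none within 100 kb. Beyond 1000 kb the shares were alike, at 3.72% of the HA-shared regions and 3.69% of those off the control. Long distances were thus not particular to the HA-shared regions. At the limit the nearest members were chromosome 1 at 175894857, 10001 bp from KAP1, and chromosome 19 at 39842388, 10016 bp away. The first regions inside it, chromosome 10 at 81404517 and chromosome 12 at 117248177, were 9849 and 9845 bp from KAP1.

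The 5 regions farthest from KAP1 all lay on chromosome 14 between 59958115 and 60012679, at 2645 to 2700 kb from the nearest KAP1 region. They belong to a group of 8 HA-shared regions in 124 kb, from 59888341 to 60012679, in which the lists held 15 ZFP57, 16 control and 0 KAP1 regions. The KAP1 list had no region at all between its starts at 57312878 and 63787922, a stretch of 6.48 Mb that held 37 ZFP57 and 52 control regions. Of the 9 HA-shared regions in the stretch, 8 were in this group, and the ninth was at 59521114. Their ZFP57 starts lay 17 to 113 bp above the control starts, except for the region at 59999946, whose start lay 104 bp below. The share of this sequence to which short reads can be mapped was not tested.

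Spacing between the HA-shared regions themselves was wide. The median distance from one to the nearest other was 436 kb (345 to 553 kb), 30.3% had another within 100 kb and 15.7% (13.4 to 18.2%) within 10 kb. The 921 gaps between neighbours on a chromosome ran from 86 bp to 39.6 Mb with a median of 1.25 Mb. In 10 gaps the neighbours overlapped, and 928 different control regions served as the nearest partner of the 942, so a few regions share a partner. Joined over gaps of at most 10 kb, the 942 regions formed 862 loci, of which 794 held 1 region, 59 held 2, 6 held 3 and 3 held 4.

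Several of the loci with the most regions had an inner layout that recurred, and others did not. On chromosome 13 from 41057328 to 41060570, 4 ZFP57 regions started exactly 1031 bp apart. The control regions beside the first 3 started 123 bp higher in each case, so that they too were 1031 bp apart, and the fourth control region started 47 bp higher than its ZFP57 region. One more ZFP57 region followed without a control partner, and the nearest KAP1 region was 203 kb away. This was the one place at which the same spacing between neighbouring HA-shared regions within 10 kb occurred 3 times on a chromosome.

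The locus on chromosome 18 from 48206799 to 48207685 and the one on chromosome 2 from 80677686 to 80678570 had nearly the same layout although they lie on different chromosomes. In both, ZFP57 regions started 307 bp apart, the first with the control start 17 bp above it and the second with the control start 114 bp below it. Both loci also had a further ZFP57 region 300 bp before the first, off the control. After this stretch they differed: chromosome 18 had ZFP57 regions at 611 and 737 bp from the first start and a control region at 671 bp, and chromosome 2 had 1 ZFP57 region at 735 bp and a control region at 666 bp. The nearest KAP1 regions were 389 kb and 1151 kb away.

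Chromosome 6 held a pair of such loci 57.5 kb apart, from 124466794 to 124467923 and from 124524339 to 124525436. Each had 3 ZFP57 and 2 control regions. The first ZFP57 regions were 163 bp apart in both and shared a control region that started 129 bp above the first and 34 bp below the second. The third ZFP57 region followed 817 bp after the second in the lower locus and 785 bp after it in the upper one. On chromosome 11 a pair of ZFP57 regions starting at 48796891 and 48798070, 1179 bp apart, recurred 71.9 kb further on at 48868757 and 48869937, 1180 bp apart. The control starts lay 66 and 142 bp above the ZFP57 starts at both places. The upper pair forms a locus of 3 with a region at 48877247, whose control start lay 131 bp below, and this locus spans 48868757 to 48877396. The chromosome 6 and chromosome 11 pairs and the match between chromosomes 2 and 18 were picked after their values were seen. Whether these loci are copies of one sequence to which the same reads can be assigned was not tested, because the genome of build mm9 is not used here. If they are, their regions are not separate observations.

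**Figure D3:**
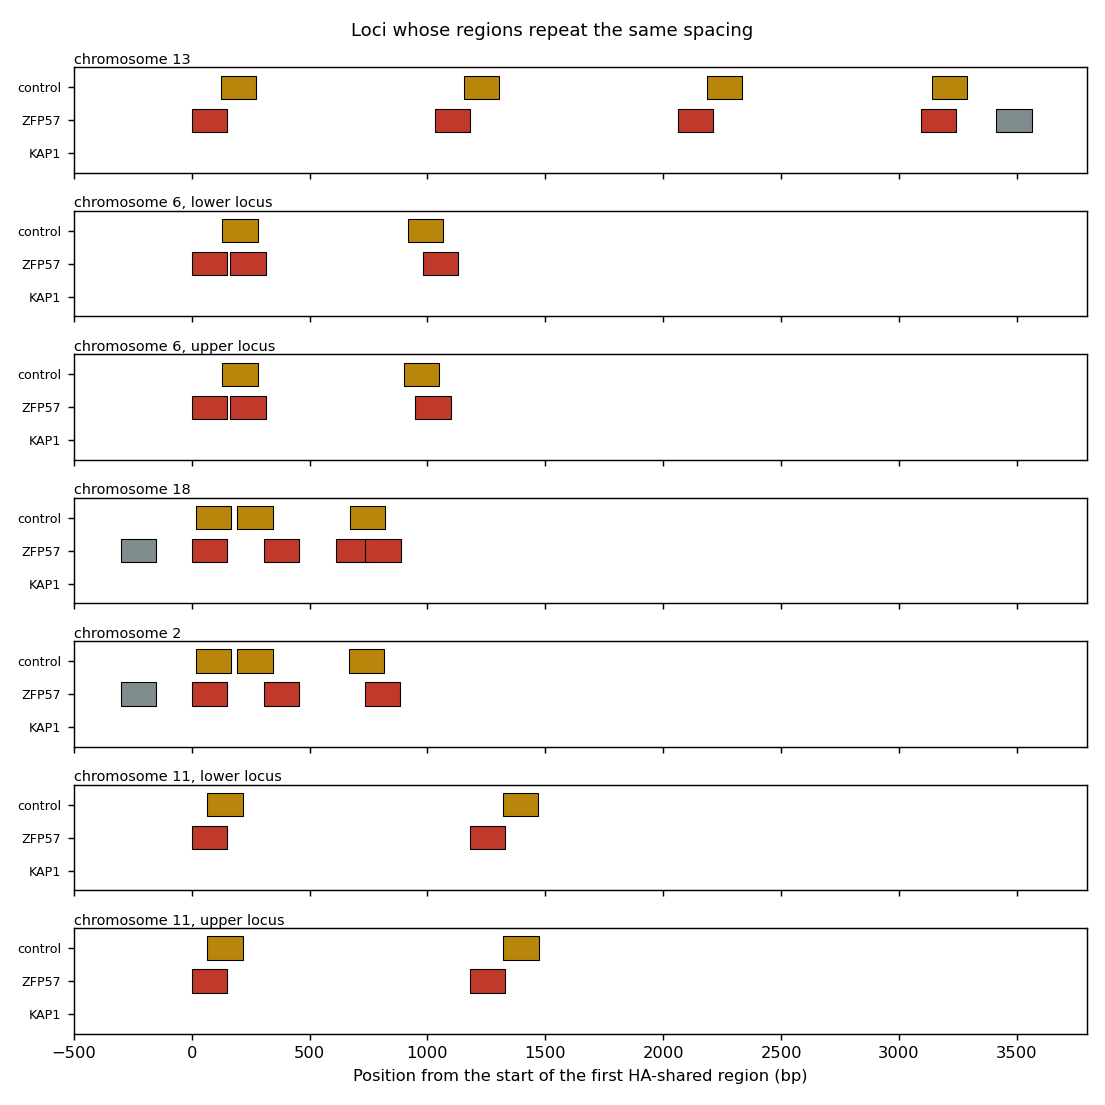
Regions of the 3 lists at 7 loci, drawn to scale as boxes of 150 bp by position from the start of the first HA-shared region (x axis, bp), with control regions in gold, HA-shared ZFP57 regions in red and other ZFP57 regions in grey; no KAP1 region falls in any panel. The 1031 bp steps on chromosome 13 and the matching first boxes within the chromosome 6 pair, the chromosome 11 pair and the chromosomes 18 and 2 panels can be read directly.

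Such repetition also occurred among HA-shared regions with KAP1. Of the 80 neighbouring pairs of HA-shared regions without KAP1 within 10 kb, 6 (7.50%) had another pair with the same spacing and control offsets to the base. Among 7994 pairs of HA-shared regions with KAP1, 471 (5.89%) did. The sets differ greatly in their number of pairs, so the 2 shares are not compared. The chromosome 11 pair is not among the 6, since its spacings differ by 1 bp. The count also leaves out matches between regions farther apart, which were not searched for. On chromosome 12, regions at 56201675 and 56276735 both had a control offset of 41 bp and KAP1 10789 bp away. Those at 56242322 and 56317386 both had an offset of 93 bp, with KAP1 29858 and 29862 bp away. Whether these too are copies of one sequence was not tested, so the loci named may not be the only such ones. The remaining locus with 4 regions, chromosome 2 from 49163762 to 49165337, held 5 control regions and no such repeat. Its ZFP57 regions were 318, 794 and 314 bp apart, with control offsets of -41, -85, 53 and -63 bp, and KAP1 was 305 kb away. Loci of 3 on chromosome 3, from 88605038 to 88621621 and from 88685463 to 88700431, each held 7 ZFP57 and 5 control regions. Their HA-shared regions were 9597 and 6837 bp apart in the lower locus and 8174 and 6645 bp apart in the upper one, with no spacing in common, and KAP1 was 11.5 and 25.1 kb away.

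The regions occurred on all 19 autosomes, X and Y but not on the mitochondrial genome, where 36 ZFP57 regions lay on control regions and all had KAP1 nearby. Density was taken per Mb between the lowest and the highest region of any list on a chromosome. Its median over the autosomes was 0.370 per Mb. Chromosome 17 was highest with 53 regions and 0.574 per Mb (0.430 to 0.751), followed by chromosome 7 with 81 regions and 0.542 per Mb (0.430 to 0.674) and chromosome 11 with 59 and 0.497 per Mb. The intervals of these 3 overlap, so their order is not resolved. Chromosome 8 was the lowest autosome, with 27 regions and 0.210 per Mb (0.138 to 0.305), and its interval lay below those of chromosomes 3, 7, 11, 12, 13, 15 and 17. The X chromosome held 19 regions or 0.116 per Mb (0.0699 to 0.181), and Y held 1.

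The share of HA-shared regions that lacked KAP1 differed widely between chromosomes. The rule depends on KAP1 regions, so their density is given beside it. The share was highest on chromosome 15, at 43 of 144 (29.9%, 22.5 to 38.0%), where KAP1 had 3.30 regions per Mb. It came to 27.0% on chromosome 19, 25.2% on chromosome 2 and 24.1% on chromosome 18. On chromosome 8 it was 27 of 1019 (2.65%, 1.75 to 3.83%), on chromosome 17 3.98% and on chromosome 4 4.36%, with 13.1, 22.6 and 13.2 KAP1 regions per Mb. The order of the shares was not the order of the KAP1 densities. X had 19 of 754 (2.52%) at 7.03 KAP1 regions per Mb and chromosome 1 had 5.24% at 8.79 per Mb, whereas chromosomes 7 and 13 had 12.6% and 9.09% at 10.8 and 12.8 per Mb.

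Counted among KAP1-free ZFP57 regions, the autosomes were more alike and X stood apart. The share on a control region ran from 9.75% on chromosome 8 (6.52 to 13.9%) to 19.4% on chromosome 12 (14.9 to 24.6%), with a median of 13.7%. On X it was 19 of 58, or 32.8% (21.0 to 46.3%). X thus had few KAP1-free ZFP57 regions, and a larger part of them lay on control regions than on any autosome, although its interval overlaps that of chromosome 12. Of all ZFP57 regions on X, 754 of 1015 lay on a control region, against 10800 of 22031 in the whole list. Only 58 of the 1015 regions on X were KAP1-free, against 6929 of the 22031 in the whole list. These 2 shares thus mix regions with and without KAP1 in unlike parts. They do not show whether X also stood apart among regions with KAP1. X held 6.53 control regions per Mb against 12.3 to 41.0 on the autosomes. How many X chromosomes the cells of each library carried was not tested.

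**Figure D4:**
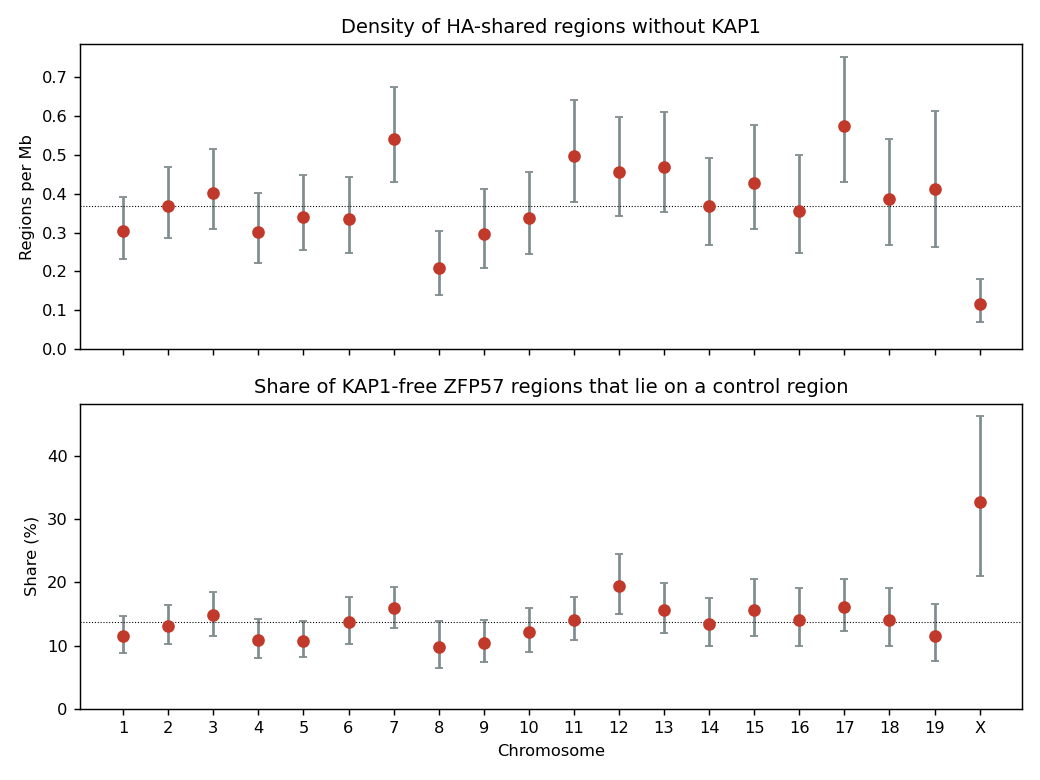
Upper panel, HA-shared regions without KAP1 per Mb (y axis) by chromosome (x axis) with exact 95% Poisson intervals; X is lowest at 0.116. Lower panel, the share of KAP1-free ZFP57 regions on a control region (y axis, %) with exact 95% binomial intervals; X is highest at 32.8%, and dotted lines mark the autosomal medians of 0.370 per Mb and 13.7%.

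In windows of 1 Mb the regions were spread thinly. They fell into 636 of the 2514 windows that held any region: 457 windows had 1, 115 had 2, 35 had 3, 15 had 4 and 14 had 5 or more. The 14 held 90 regions (9.55%). Of the 2514 windows, 498 held no KAP1 region, and 81 of these held 110 of the 942 regions (11.7%). The share of other ZFP57 regions in such windows was not counted. The windows below were chosen for their counts, so the counts are a description.

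The window with the most was chromosome 3 from 88 to 89 Mb, with 10 HA-shared regions without KAP1 (Poisson interval 4.80 to 18.4) among 46 ZFP57, 67 control and 12 KAP1 regions. They were 10 of the 15 ZFP57 regions on a control region there. A run of 9 of them spanned 115 kb from 88585408 to 88700431, with gaps of 6.65 to 51.0 kb, and the tenth stood apart at 88400783. Their KAP1 distances were 11.5 to 76.7 kb, so this window is one with KAP1 regions just outside the limit.

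Chromosome 11 from 48 to 49 Mb came next with 9 of its 14 HA-shared regions without KAP1, at 10.3 to 24.2 kb from KAP1. The window held 35 ZFP57, 39 control and 10 KAP1 regions. The 9 lay in 130 kb and included both pairs described above. They also included a pair 2715 bp apart from 48747678, with control offsets of 115 and 132 bp. Another pair, 2727 bp apart from 48820554, had offsets of 112 and 87 bp. Whether this window holds copies of one sequence was not tested. Chromosome 13 from 50 to 51 Mb held 8 among 82 ZFP57 and 112 control regions, with KAP1 listing 40, spread over 877 kb and within 39.7 kb of KAP1. Their offsets from the control start ran from -75 to 118 bp, with 4 above 0.

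The next 3 windows held 7 each and differed in their surroundings. On chromosome 6 from 124 to 125 Mb, 7 of 8 HA-shared regions lacked KAP1, 6 of them in the loci 57.5 kb apart, although the window held 14 KAP1 regions. In the chromosome 9 window from 88 to 89 Mb the 7 were 15.2% of 46 HA-shared regions, among 106 ZFP57, 134 control and 89 KAP1 regions. On chromosome 14 from 59 to 60 Mb all 7 HA-shared regions lacked KAP1, and the KAP1 list was empty (0) beside 17 ZFP57 and 19 control regions.

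Windows with 6 were chromosome 7 from 54 to 55 Mb, where 6 of 7 HA-shared regions lacked KAP1 at distances of 21.6 to 168 kb, and chromosome 12 from 115 to 116 Mb, where 6 of 22 did. Another 6 windows held 5 each. Chromosome 7 from 19 to 20 Mb had 5 of 6 HA-shared regions without KAP1 beside 48 control, 25 ZFP57 and 7 KAP1 regions. The window on the same chromosome from 48 to 49 Mb had 5 of 16, beside 60 control, 49 ZFP57 and 29 KAP1 regions. Among the rest of these, chromosome 13 from 12 to 13 Mb had 5 of 99 HA-shared regions without KAP1 in a window of 180 KAP1 regions. Chromosome 19 from 57 to 58 Mb had 5 of 5, with 24 control regions and 1 KAP1 region. High counts thus occurred both where KAP1 regions were many and where the KAP1 list was empty or nearly so.

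**Figure D5:**
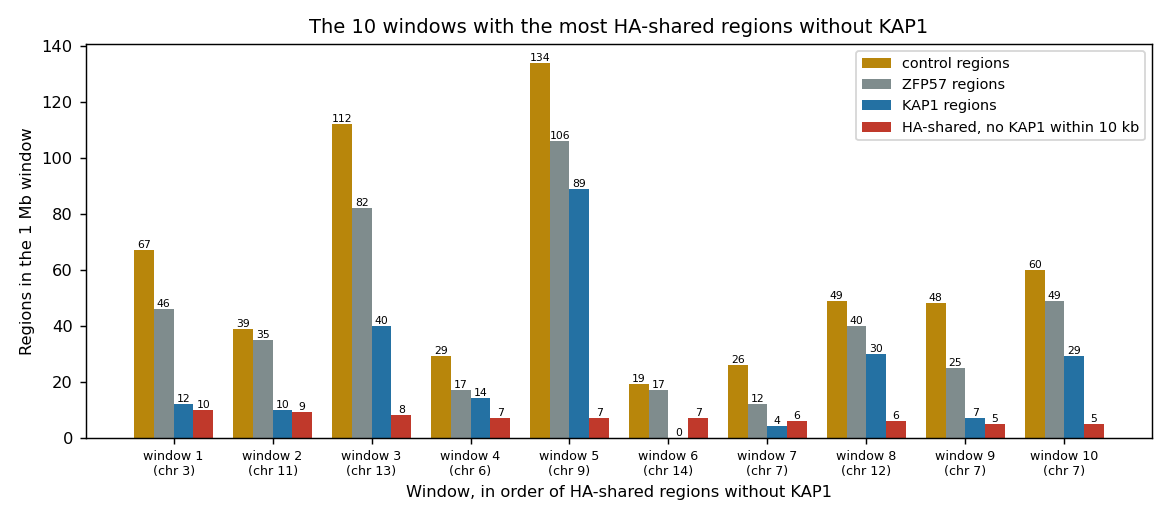
Number of regions (y axis) of the control, ZFP57 and KAP1 lists and of HA-shared regions without KAP1 in the 10 windows of 1 Mb (x axis) that hold the most of the latter, in order from chromosome 3 from 88 Mb to chromosome 7 from 48 Mb. Control regions outnumber the other lists in all 10, and the chromosome 14 window holds 0 KAP1 regions beside 7 HA-shared regions.

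Genes at or near these regions, their position to promoters or repeats, and their sequence were not analysed here, because neither gene positions nor a genome of build mm9 are used. Depth and the threshold of each list are unknown, so whether KAP1 signal lay just under the threshold at any of the 942 regions was not tested.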

How the data were processed

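The data are region lists of 3 ChIP-seq libraries (1 per group) from mouse ES cells. The deposited files have 3 columns without a header: chromosome, start and end, with no count, score or signal. Per the submitters' processing notes, Bowtie and genome build mm9 were used. The sources used here do not give the peak caller, its threshold, any use of a control, how reads with several matches were handled, or the depth. All regions are 150 bp wide and none is listed more than once in a file.

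Starts were compared in Python 3.11.15 (numpy 2.4.6, pandas 2.3.3, scipy 1.17.1, matplotlib 3.10.9). The count of 942 was also obtained with bedtools 2.31.1, and the rule was tested on simulated lists with known answers. Positions are printed counted from 1. Shares have exact (Clopper-Pearson) 95% intervals, counts exact Poisson intervals and medians exact order-statistic intervals. No test between conditions was made with 1 library per group. The regions, lists and limits were chosen with earlier results of these data known. The text names the 10 windows of 1 Mb and the 10 loci with the most regions, of which the tenth is one of 59 ties at 2 regions and is not described, the 5 regions farthest from KAP1, regions at each limit, and loci that repeat a spacing at 3 or more places. Alternatives changed the distance limits, merging, dense windows, joining gaps and window positions. No sequence is printed, because no genome of build mm9 is used here.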

Additional observations from a re-analysis of the deposited data

How the results depend on the processing

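No paired analysis was possible because there is a single library per group, and for that reason no replicate was left out. Of 72 recomputed values, 41 stayed within the interval of the reported value (for counts, within 1.5 times) and 31 did not. Most of the 31 follow from the alternative's own construction, since a wider or narrower limit adds or removes regions at one end.

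With control starts less than 75 bp away, the median absolute distance between the starts was 29 bp. The share of KAP1-free ZFP57 regions on a control region was then 10.4%, and the share of regions with another within 10 kb 10.6%. With less than 500 bp these were 53 bp, 16.9% and 22.2%, the highest density 0.780 per Mb and the fullest window 16. Keeping only 1 kb free of KAP1 gave 1711 regions, 1433 loci, shares of 18.2% and 27.6%, a density of 1.88 per Mb, 27 regions in the fullest window (on chromosome 17 in place of chromosome 3) and a median KAP1 distance of 14.3 kb. With 5 kb the shares were 14.6% and 18.6%, the density 0.813 per Mb and the KAP1 distance 65.3 kb. With 20 kb the shares were 12.7% and 12.9% and the KAP1 distance 136 kb. With 50 kb there were 619 regions, shares of 12.4% and 12.4%, a density of 0.347 per Mb and a KAP1 distance of 194 kb. Without windows of 50 or more control regions the KAP1 distance was 128 kb. Another region lay within 1 kb of 7.54% and within 100 kb of 30.3%.

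The median absolute distance to the control start was 37 to 40 bp under every KAP1 limit, after merging and without dense windows. The chromosome and window that ranked highest changed with the limits: chromosome 7 had the highest density at 20 kb and without dense windows, and the chromosome 14 window led at 20 and 50 kb. Windows shifted by 0.5 Mb put 12 regions in the fullest one, on chromosome 11. Moving control starts up by 18 bp, chosen after seeing the data, gave 939 regions and a median absolute distance of 34 bp.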
